A study of Mus musculus with 3 samples.

Results

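Open chromatin was described at the 10 genes that encode the cohesin ring, its loader and the proteins that release or steady it on chromatin, Nipbl, Mau2, Smc1a, Smc3, Rad21, Stag1, Stag2, Wapl, Pds5a and Pds5b, out of 21887 protein-coding genes of the mouse annotation. The genes were chosen by name, with the condensin and Smc5/6 genes left out, and each locus was the gene span with 10 kb on either side (build mm10). The assay was ATAC-seq, which uses a transposase to cut and tag DNA that is not packed away, and a listed region is a stretch where such cuts pile up. The 10 loci held 112 listed regions at 0 h, 124 after 6 h and 122 after 72 h.

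All 3 libraries came from the mouse ECOMG line of myeloid progenitors in which NIPBL carries an FKBP12F36V tag, grown with GM-CSF and β-estradiol, with 50000 cells per library. The 6 h and 72 h libraries were treated with dTAG, a small molecule that sends a protein with this tag to the proteasome, and the 0 h library was not. The degron allele, the cytokine and the estradiol are thus shared by all 3, and no library without dTAG at 6 h or 72 h and no untagged line was used here. There was 1 library per time, so no difference between times has a replicate check, no p-value is given, and dTAG, time in culture and the individual library cannot be told apart. Whether the line is a single clone is not given in the sources used here.

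Cohesin is a ring of proteins that embraces DNA, holds sister chromatids together and extrudes chromatin loops. NIPBL, together with MAU2, loads the ring and drives loop extrusion, STAG1 or STAG2 joins the ring as a further core subunit, and WAPL with a PDS5 protein opens it again. In blood cells cohesin is known for its part in the balance between progenitor growth and differentiation, and STAG2, RAD21, SMC1A and SMC3 are genes that are recurrently mutated in myeloid leukaemia.

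The lists as a whole held 182233 regions at 0 h, 178055 after 6 h and 145044 after 72 h. They spanned 34.1 Mb, 34.3 Mb and 29.9 Mb in the same order. The median length was 130 bp at 0 h, 135 bp after 6 h and 153 bp after 72 h. Read totals were not used here, so the depth behind a list is unknown, and a stretch without a listed region may hold signal below the lowest listed fold of 3.02 at 0 h, 3.01 at 6 h or 3.12 at 72 h. Fold is the authors' peak caller's own ratio of the summit to its background, and it is set against other regions only within a list. Folds printed for several times stand side by side, and single stretches are compared between times by rank. Counts of regions with a fold of at least 10 rest on each list's own scale, so each is set beside the same count over coding loci. As a check of the cell label, 6 of the 7 (of 10 listed) myeloid marker genes with a mapped start site had a region on it at 0 h, 6 after 6 h and 5 after 72 h. Cebpa, Csf2ra, Itgam, Ptprc and Elane had one at all 3 times, Prtn3 at 0 h and 6 h, and the myeloperoxidase gene Mpo at none. Of 7 marker genes of other cell types, 1 (Klf1, an erythroid factor) had a start region at 0 h, 0 after 6 h and 0 after 72 h.

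Every one of the 7 cohesin genes with a mapped start site, Mau2, Smc1a, Smc3, Stag1, Wapl, Pds5a and Pds5b, had a region over that site in all 3 lists. Among 17492 protein-coding genes with such a site, 52.3% had a region there at all times. The promoter sequences of 6 of them, all but Mau2, are shown because they lie inside regions of at least 1000 bp at 0 h that were listed in separate pieces at 72 h. Each runs from 250 bases before to 50 bases after the start site on the gene's own strand, from RefSeq on GRCm38.p6, the assembly of mm10. Capitals mark GGGCGG, the core letters bound by Sp1 and KLF factors, and CCAAT, the core letters bound by NF-Y, or their reverse complements CCGCCC and ATTGG. Smc1a, a hinge and ATPase arm of the ring, is at chrX:152016178-152016477 (plus strand), Smc3, its partner arm, at chr19:53600146-53600445 (plus strand), and Stag1, a subunit bound to the ring, at chr9:100643198-100643497 (plus strand). Wapl, the release factor, is at chr14:34673678-34673977 (plus strand), and the regulatory subunits are at chr5:65698187-65698486 (Pds5a, minus strand) and chr5:150673577-150673876 (Pds5b, plus strand).
Smc1a: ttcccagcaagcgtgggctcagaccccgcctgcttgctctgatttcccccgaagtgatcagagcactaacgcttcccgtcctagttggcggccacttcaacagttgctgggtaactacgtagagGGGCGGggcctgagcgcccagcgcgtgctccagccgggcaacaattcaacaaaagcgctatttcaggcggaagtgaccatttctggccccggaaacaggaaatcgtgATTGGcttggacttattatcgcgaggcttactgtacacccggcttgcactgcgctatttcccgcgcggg
Smc3: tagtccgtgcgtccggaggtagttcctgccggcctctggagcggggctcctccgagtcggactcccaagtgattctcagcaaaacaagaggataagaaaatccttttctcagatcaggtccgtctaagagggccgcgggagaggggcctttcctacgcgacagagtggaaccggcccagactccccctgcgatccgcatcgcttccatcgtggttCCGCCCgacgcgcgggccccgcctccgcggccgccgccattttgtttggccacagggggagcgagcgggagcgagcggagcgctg
Stag1: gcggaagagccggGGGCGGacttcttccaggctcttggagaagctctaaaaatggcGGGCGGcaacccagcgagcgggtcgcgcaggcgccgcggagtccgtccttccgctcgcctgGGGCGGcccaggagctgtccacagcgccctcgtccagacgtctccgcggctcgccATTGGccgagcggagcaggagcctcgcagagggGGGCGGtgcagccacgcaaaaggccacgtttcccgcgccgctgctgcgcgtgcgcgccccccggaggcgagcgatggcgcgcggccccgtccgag
Wapl: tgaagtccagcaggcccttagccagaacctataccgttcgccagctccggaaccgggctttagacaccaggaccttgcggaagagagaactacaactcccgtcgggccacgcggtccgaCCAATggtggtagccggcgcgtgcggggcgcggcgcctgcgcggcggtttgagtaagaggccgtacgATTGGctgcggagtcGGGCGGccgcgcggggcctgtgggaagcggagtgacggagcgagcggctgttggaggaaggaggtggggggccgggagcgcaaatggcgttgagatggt
Pds5a: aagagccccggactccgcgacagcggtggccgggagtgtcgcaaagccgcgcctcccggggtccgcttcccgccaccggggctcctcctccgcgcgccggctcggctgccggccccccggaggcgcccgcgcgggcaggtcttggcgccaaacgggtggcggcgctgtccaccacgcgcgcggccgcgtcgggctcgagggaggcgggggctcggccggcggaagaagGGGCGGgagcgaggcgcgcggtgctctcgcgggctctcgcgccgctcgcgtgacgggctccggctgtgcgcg
Pds5b: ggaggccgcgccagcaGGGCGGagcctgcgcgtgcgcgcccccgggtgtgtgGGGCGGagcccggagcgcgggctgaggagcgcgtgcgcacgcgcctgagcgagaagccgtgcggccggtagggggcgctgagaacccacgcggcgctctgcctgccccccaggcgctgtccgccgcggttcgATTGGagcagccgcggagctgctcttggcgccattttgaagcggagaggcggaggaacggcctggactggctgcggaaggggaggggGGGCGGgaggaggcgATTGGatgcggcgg

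Among the 7 promoter windows, 7 held GGGCGG on either strand, against 35.6% of 32817 RefSeq mouse promoters and 64.4% of the 12562 promoters that a region overlapped in all 3 lists. Stag1 held 4 copies, Pds5b 3, and Mau2, Smc1a, Smc3, Wapl and Pds5a 1 each. CCAAT on either strand was in 4 of the 7 (Smc1a, Stag1, Wapl and Pds5b), against 37.4% of all promoters and 37.7% of those open at all times, and its matches did not overlap those of GGGCGG. The ETS letters CCGGAAG, the E-box CACGTG, the cyclic AMP response element TGACGTCA, the NRF1 motif and the CTCF motif were in 0 of the 7 windows. Over all promoters these were present in 8.86%, 7.15%, 1.79%, 0.966% and 0.0122%, and over those open at all times in 18.9%, 10.5%, 3.3%, 2.15% and 0.0318%. The NRF1 and CTCF motifs were each searched as 1 fixed pattern. Variant forms of these sites were not counted and may lie in the windows. A match of letters is a description of the window and no evidence of binding, and the windows are 300 bases long. The windows ranged in G+C content between 56% at Mau2 and 80.3% at Pds5a, against a median of 52.7% over all promoters and 61.3% over those open at all times. CpG pairs numbered 21 at Mau2, 23 at Smc1a, 32 at Smc3, 35 at Wapl, 41 at Pds5b, 43 at Stag1 and 55 at Pds5a, against medians of 7 and 21. All 300 bases of each window lay in listed regions at 0 h and 6 h. At 72 h the regions covered 300 bases at Mau2, Smc1a, Stag1 and Pds5b, 296 at Smc3, 294 at Pds5a and 287 at Wapl.

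By number of regions, 6 h stood above 0 h at 6 of the 10 loci, below it at 2 and level with it at 2. Of the 18930 protein-coding loci with a region at either time, 34.6% held more at 6 h and 41.8% held fewer. The 72 h number stood above that of 0 h at 5 loci (Nipbl, Smc1a, Rad21, Stag2 and Wapl), below it at 4 (Mau2, Smc3, Stag1 and Pds5b) and level with it at Pds5a, against 24.1% of 18724 such coding loci with more and 61.1% with fewer. The lists differ in length, and the number of loci with more at 72 h was 8 with lists cut to an equal size, 9 for regions with a fold of at least 10 and 3 with regions under 150 bp apart joined. Over coding loci the share with more was 44.4% for a fold of at least 10. It was not computed for equal lists or joining, so the 8 and the 3 cannot be set against the 24.1%. With equal lists the 72 h minus 0 h difference was 6 at Stag1 and 1 at Pds5b, against -3 and -1 with the whole lists. The median difference was 1 region at 6 h and 1 at 72 h, against 0 and -1 over coding loci. As sums, the 124 regions at 6 h were 1.11 times the 112 at 0 h (95% interval 0.851 to 1.44), and the 122 at 72 h were 1.09 times (0.836 to 1.42). Summed over all coding loci, the number was 181410 at 0 h, 177209 after 6 h and 154945 after 72 h. A region was counted in each coding locus that held it, here and in the sums of listed bases and of regions with a fold of at least 10. Relative to these sums the cohesin sums were 1.13 times as large at 6 h (0.871 to 1.48) and 1.28 times at 72 h (0.979 to 1.66). With each region counted once (133203, 130728 and 112737 in coding loci), the values were 1.13 and 1.29. All 4 intervals include 1. They cover counting error only and treat the counts at both times as independent, although most regions were listed at both. Stag2 carried part of the difference: without it the 72 h value was 1.17, and without Stag1 it was 1.34. With regions under 150 bp apart joined, at the cohesin loci and over coding loci alike, the 72 h value was 1.09 (0.82 to 1.45).

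Counts of regions and the length they cover gave different pictures. The listed bases in the 10 loci were 27428 at 0 h, 27349 after 6 h and 26348 after 72 h, so the 72 h total was 0.961 times the 0 h total, against 0.888 over all coding loci. Regions with a fold of at least 10 numbered 40 at 0 h, 46 after 6 h and 61 after 72 h. The 72 h number was 1.52 times that of 0 h, against 1.12 over coding loci. At 9 of the 10 loci such regions were more numerous at 72 h than at 0 h, and Smc3 was the exception. Of the 16814 coding loci with such a region at either time, 44.4% (7467) held more, while 4716 held fewer. Coding loci were not matched to the cohesin loci in length or number of regions. Part of the difference at the cohesin loci lies in how a region is cut. Counted as stretches, in which all regions that overlap in any list are joined, the 10 loci held 39 with a fold of at least 10 at 0 h, 43 after 6 h and 51 after 72 h. The 72 h number of stretches was 1.31 times that of 0 h, against 1.08 over coding loci, with 6 loci holding more and 2 (Smc3 and Wapl) holding fewer. The share of coding loci with more or fewer such stretches was not computed. At Wapl the difference came from a flanking stretch close to the limit, with folds of 10.6 at 0 h, 12.8 after 6 h and 9.37 after 72 h.

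**Figure D1:**
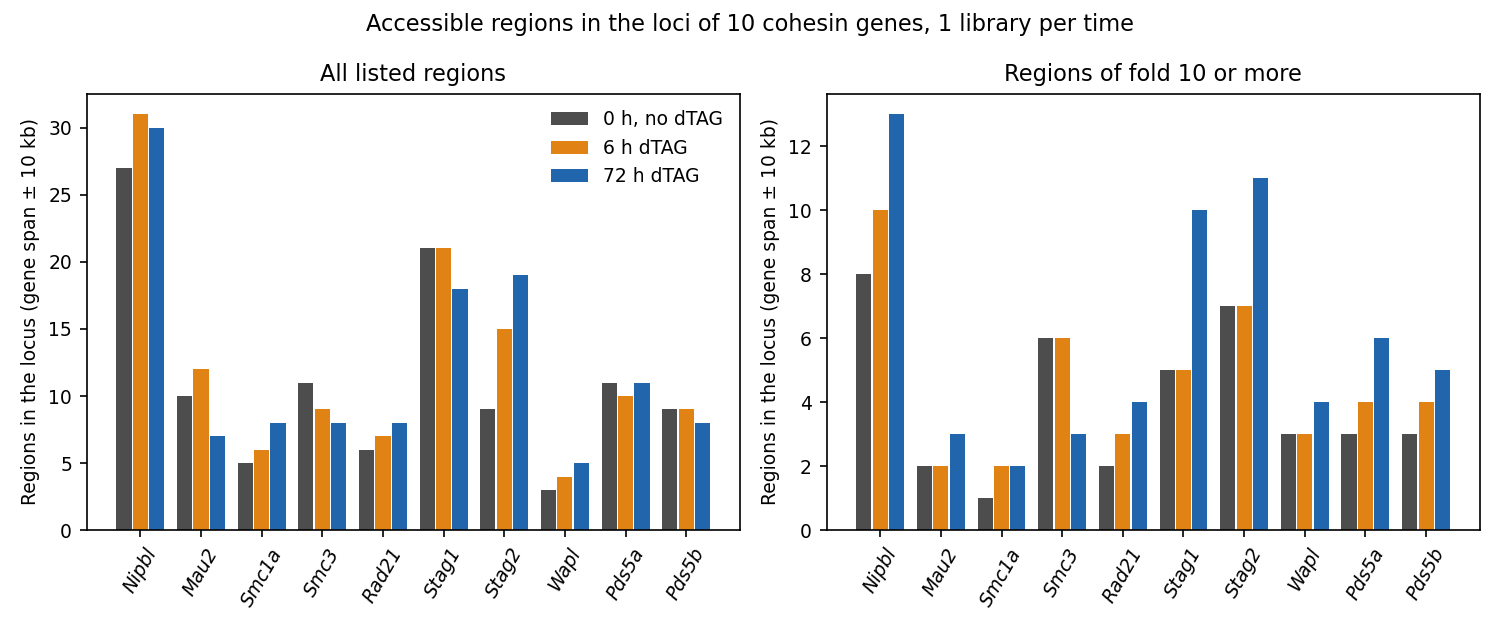
Number of listed regions (left) and of regions with a fold of at least 10 (right) in each of the 10 cohesin loci (gene span with 10 kb on either side) at 0 h, 6 h and 72 h, 1 library per time, with no error bars because no time was replicated. Stag2 held 9, 15 and 19 regions and is the locus with the widest difference between 72 h and 0 h, while Mau2 held 10, 12 and 7.

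Nipbl, the loader and the tagged gene itself, had the most listed regions of the 10 loci, 27 at 0 h, 31 after 6 h and 30 after 72 h over a locus of 195 kb (gene span chr15:8289824-8465315). The counts do not report on the protein, and no measurement of NIPBL protein was used here. Its highest region lay inside the annotated span, at chr15:8443555-8445663 with a fold of 113 and a length of 2109 bp at 0 h. The highest region had a fold of 130 over 2127 bp at 6 h and a fold of 133 over 320 bp at 72 h, when 3 pieces covered 89.2% of the 0 h region. The predicted gene LOC102634078 (8435112 to 8445863) covers the same bases, and signal there cannot be assigned to either gene.

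Within the Nipbl body the stretches differed in both directions between 72 h and 0 h. To compare stretches over lists of different length, each was ranked by fold among the 98083 stretches listed at all 3 times, with 100 for the highest. The stretch at 8382345 to 8382546 had folds of 6.80 at 0 h, 3.77 after 6 h and 30.4 after 72 h, which put it at rank 21.1, 2.01 and 71.4. The stretch at 8340676 to 8340893 had folds of 9.83, 16.6 and 41.4 and ranks of 36.4, 54.7 and 78.3. A stretch 18.5 kb from the centre of the highest region, at 8462852 to 8463327, had folds of 3.78, 6.03 and 20.3, and that at 8411306 to 8411445 had 6.05, 3.01 and 11.7. A lower rank at 72 h than at 0 h was seen at 8420979 to 8421190, with folds of 23.4, 27.9 and 6.25 and ranks of 68.9, 71.8 and 19.5. Weak regions differed between lists. Of the 27 regions at 0 h, 7 had no overlap at 6 h, while over coding loci 77.9% of 0 h regions had one. The highest of the 7 (8433693 to 8433780) had a fold of 8.32 and was listed again at 72 h at 8433692 to 8433783 with 7.81. The highest 0 h region without overlap at 72 h (8415681 to 8415772) reached 6.80. The highest 6 h region without overlap at 0 h or at 72 h lay at 8291345 to 8291502 with 7.54, and the highest 72 h region without overlap at 0 h lay at 8393304 to 8393404 with 7.03.

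Mau2 encodes the protein that pairs with NIPBL to form the loader. Its locus held 10 regions at 0 h, 12 after 6 h and 7 after 72 h (gene span chr8:70014527-70042734, minus strand). It held the most regions per 100 kb of the 10 loci at 0 h, with 20.7, and had 14.5 at 72 h. The region over its start had folds of 73.3 at 0 h, 81.4 after 6 h and 85.1 after 72 h and lengths of 543, 522 and 627 bp. This was the only 1 of the 7 mapped start regions that was longer at 72 h than at 0 h. The span of the neighbouring gene Sugp1 begins at 70042769, inside this region, so the signal of both genes cannot be told apart there. Of the 10 regions at 0 h 5 had no overlap at 72 h, while over coding loci 63.3% of 0 h regions had one. The highest of the 5 lay at 70012489 to 70012601 with a fold of 9.83, within a stretch in the flank (70012307 to 70012642) with folds of 9.83, 5.27 and 6.25. A flanking region at 70005245 to 70005420 (fold 9.04 at 6 h) was not overlapped at 72 h. The highest 72 h region without overlap at 0 h or at 6 h, at 70014431 to 70014577, had a fold of 7.03.

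Smc1a (chrX:152016428-152061973, plus strand) encodes an ATPase arm of the ring and held 5 regions at 0 h, 6 after 6 h and 8 after 72 h. The start region had folds of 56.7 at 0 h, 82.9 after 6 h and 72.6 after 72 h, and the gene Ribc1 overlaps the same start. At 0 h it was a single region of 1066 bp (152016149 to 152017214). At 6 h 3 regions covered 73% of it and at 72 h 4 regions covered 65.5%. Relative to the start site, the pieces at 72 h lay at -283 to 114 with a fold of 72.6, 227 to 314 with 7.03, 422 to 555 with 10.1 and 649 to 730 with 7.03. Counted as stretches with a fold of at least 10, Smc1a had 1 at 0 h, 1 after 6 h and 1 after 72 h, so its larger region count at 72 h came with the same number of such stretches. Away from the start, a region in the gene at 152047381 to 152047472 (fold 5.29 at 0 h) had no overlap at 6 h or 72 h. Upstream, a stretch was listed at 152015918 to 152016015 with 5.27 at 6 h and at 152015860 to 152015976 with 7.81 at 72 h, with no overlap at 0 h.

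Smc3 (chr19:53600396-53645831, plus strand), the partner arm of Smc1a, held 11 regions at 0 h, 9 after 6 h and 8 after 72 h. Its start region had the largest 72 h fold of the 10 loci, with 119 at 0 h, 139 after 6 h and 187 after 72 h, and ranked at 97.7, 97.5 and 98.7 among the common stretches. The 1239 bp region of 0 h, at -605 to 633 from the start site, was listed at 72 h as a piece at -541 to 45 with a fold of 187 and a second piece at 189 to 633 with a fold of 7.81. The other 4 stretches of the locus that were listed at all times ranked lower at 72 h than at 0 h. The stretch at 53608942 to 53609263, inside the gene, had folds of 30.2, 32.4 and 10.1 and ranks of 76.2, 75.8 and 37.6, and the one at 53648815 to 53649204, beyond the end of the gene, had 18.1, 15.8 and 9.37. Beside this flanking stretch, a region at 53649442 to 53649587 had a fold of 10.6 at 0 h and 10.5 at 6 h and no overlap at 72 h. It was the only one of the 40 member regions with a fold of at least 10 at 0 h that was not overlapped at 72 h. Stretches with a fold of at least 10 at Smc3 numbered 6 at 0 h, 6 after 6 h and 3 after 72 h. The highest 72 h region without overlap at 0 h, at 53636697 to 53636783, had a fold of 5.46.

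Rad21 (chr15:51962604-51993538), the kleisin that closes the ring, held 6 regions at 0 h, 7 after 6 h and 8 after 72 h. Its highest region had folds of 120 at 0 h, 162 after 6 h and 178 after 72 h over 407, 418 and 409 bp. The span of the predicted gene Gm52217 (51990975 to 51996565) covers this region, and its signal cannot be assigned to either gene. The stretch beside it, at 51990977 to 51991538, had folds of 34.8, 31.6 and 16.4 and ranks of 79.6, 75.2 and 53.7, while the next one, at 51990576 to 51990781, had 6.80, 9.04 and 14.1. All 6 regions at 0 h were overlapped at 6 h, against 77.9% of 0 h regions over coding loci. A region on the other side at 51992320 to 51992416 had a fold of 7.56 at 0 h, was listed at 51992324 to 51992429 with 10.5 at 6 h, and had no overlap at 72 h. Inside the gene, a region at 51985466 to 51985710 had a fold of 5.27 at 6 h and was listed at 51985424 to 51985717 with 10.1 at 72 h, with no overlap at 0 h. One at 51980128 to 51980270 had a fold of 8.59 at 72 h and no overlap at 6 h.

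**Figure D2:**
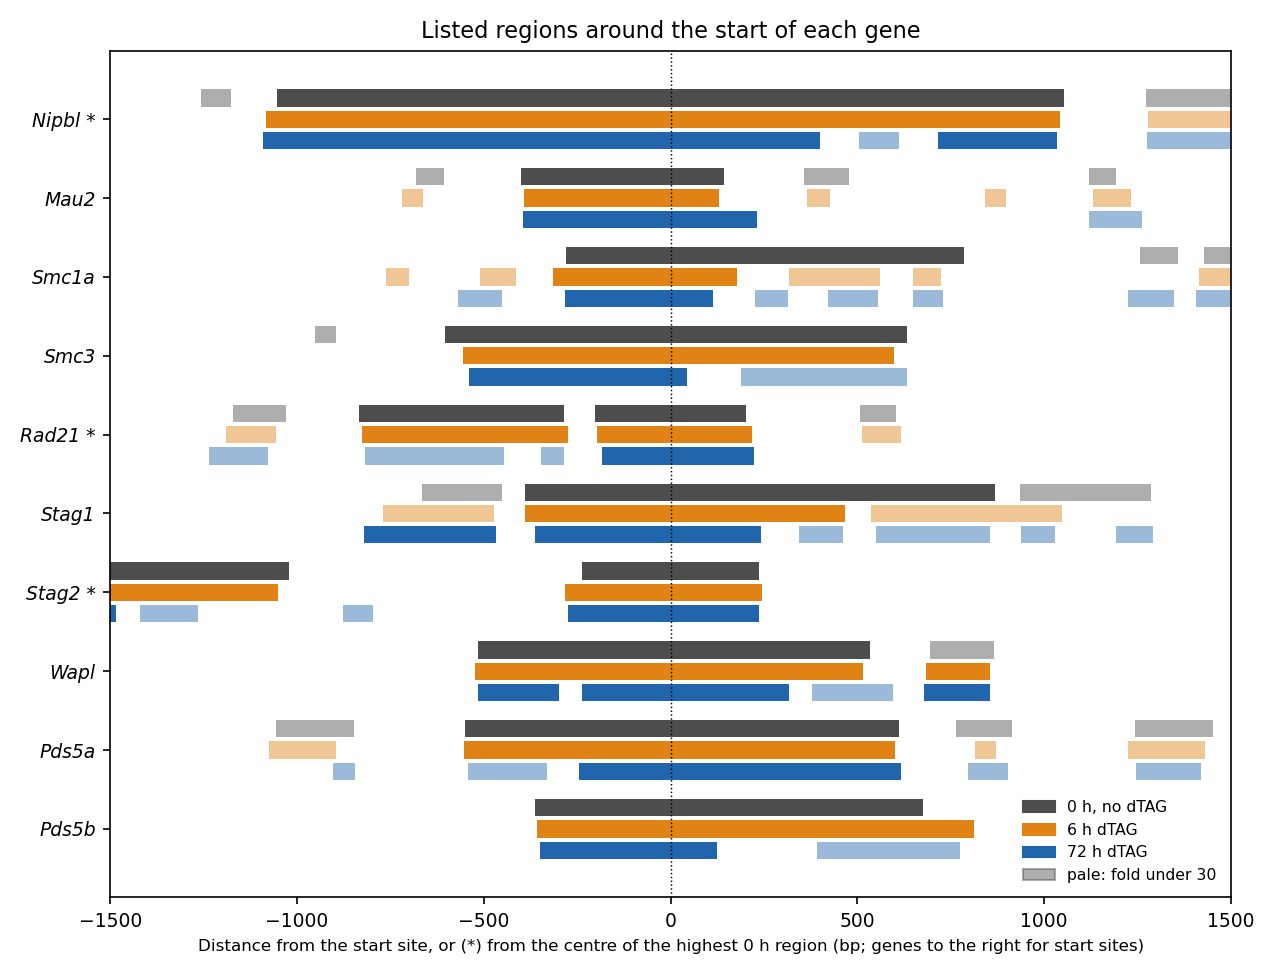
Listed regions around the start of each of the 10 genes at 0 h, 6 h and 72 h (rows from top to bottom), drawn as bars by distance in bp from the start site, or from the centre of the highest 0 h region for the genes with a star (Nipbl, Rad21 and Stag2). Genes run to the right where the start site is known, pale bars have a fold below 30, and the rows show where 1 region at 0 h was listed as separate pieces at 72 h, as at Smc1a with 4 pieces.

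Stag1 (chr9:100597709-100958544), a subunit that is exchanged with Stag2 in the ring, lies in the longest locus of 381 kb and held 21 regions at 0 h, 21 after 6 h and 18 after 72 h. Its start region had folds of 141 at 0 h, 173 after 6 h and 174 after 72 h. The 0 h region was 1261 bp long, and at 72 h 3 pieces covered 81.8% of it. Relative to the start site at 100643448, they lay at -363 to 241 with a fold of 174, 343 to 463 with 7.81 and 549 to 854 with 26.5. Although regions were fewer at 72 h than at 0 h, those with a fold of at least 10 numbered 5 at 0 h, 5 after 6 h and 10 after 72 h, and stretches of that height numbered 4, 4 and 9. The largest difference in rank among all 69 common stretches of the 10 loci was in the gene body, 90.8 kb from the start, at 100734080 to 100734401, with folds of 3.78, 6.03 and 32.8 and ranks of 2.65, 13.6 and 73.2. Close by, at 100731946 to 100732068, a region with a fold of 15.6 was listed at 72 h with no overlap at 0 h or 6 h. The stretches at 100599868 to 100600061 (folds of 4.54, 6.03 and 18.0) and 100866088 to 100866366 (9.83, 12.8 and 22.6) ranked in the same order over time, at 6.65, 13.6 and 56.6 and at 36.4, 44.6 and 63.6. Of the 21 regions at 0 h, 10 had no overlap at 72 h, while over coding loci 63.3% of 0 h regions had one. The highest of the 10, at 100740193 to 100740305, had a fold of 9.07. The highest 6 h region without overlap at 72 h lay at 100596458 to 100596552 with 8.29.

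Stag2 (chrX:42149297-42277186), the alternative to Stag1, showed the widest difference in number, with 9 regions at 0 h, 15 after 6 h and 19 after 72 h. All 9 regions of 0 h were overlapped at 6 h and 8 of them at 72 h, against 77.9% and 63.3% over coding loci. The 1 without overlap, at 42162846 to 42162939, had a fold of 3.78. Of the 19 regions at 72 h, 8 had no overlap at 0 h, while over coding loci 77.4% of 72 h regions had one. The highest of the 8 lay at 42170885 to 42171136 with a fold of 16.4. It overlapped a region with a fold of 5.27 at 6 h (42170948 to 42171052). The highest signal lay in 3 stretches near the left end of the gene span. The highest at 0 h had folds of 67.3, 79.9 and 60.9 over 477, 527 and 513 bp, and the other two had 57.5, 73.8 and 74.2 (42148725 to 42149329) and 57.5, 72.3 and 68.7 (42149537 to 42151069). The first ranked at 91.5 at 0 h, 91.9 after 6 h and 85.6 after 72 h. To the left of the gene span, the stretch at 42148035 to 42148433 had folds of 15.1, 22.6 and 46.1 and ranks of 53.4, 65.6 and 80.5, and the one at 42142696 to 42142988 had folds of 12.9, 18.1 and 35.1. Part of the larger count came from a broad region in pieces: the 1474 bp region at 42149596 to 42151069 at 0 h was listed as 4 pieces at 72 h that covered 65.7% of it. Stretches with a fold of at least 10 numbered 7 at 0 h, 7 after 6 h and 9 after 72 h.

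**Figure D3:**
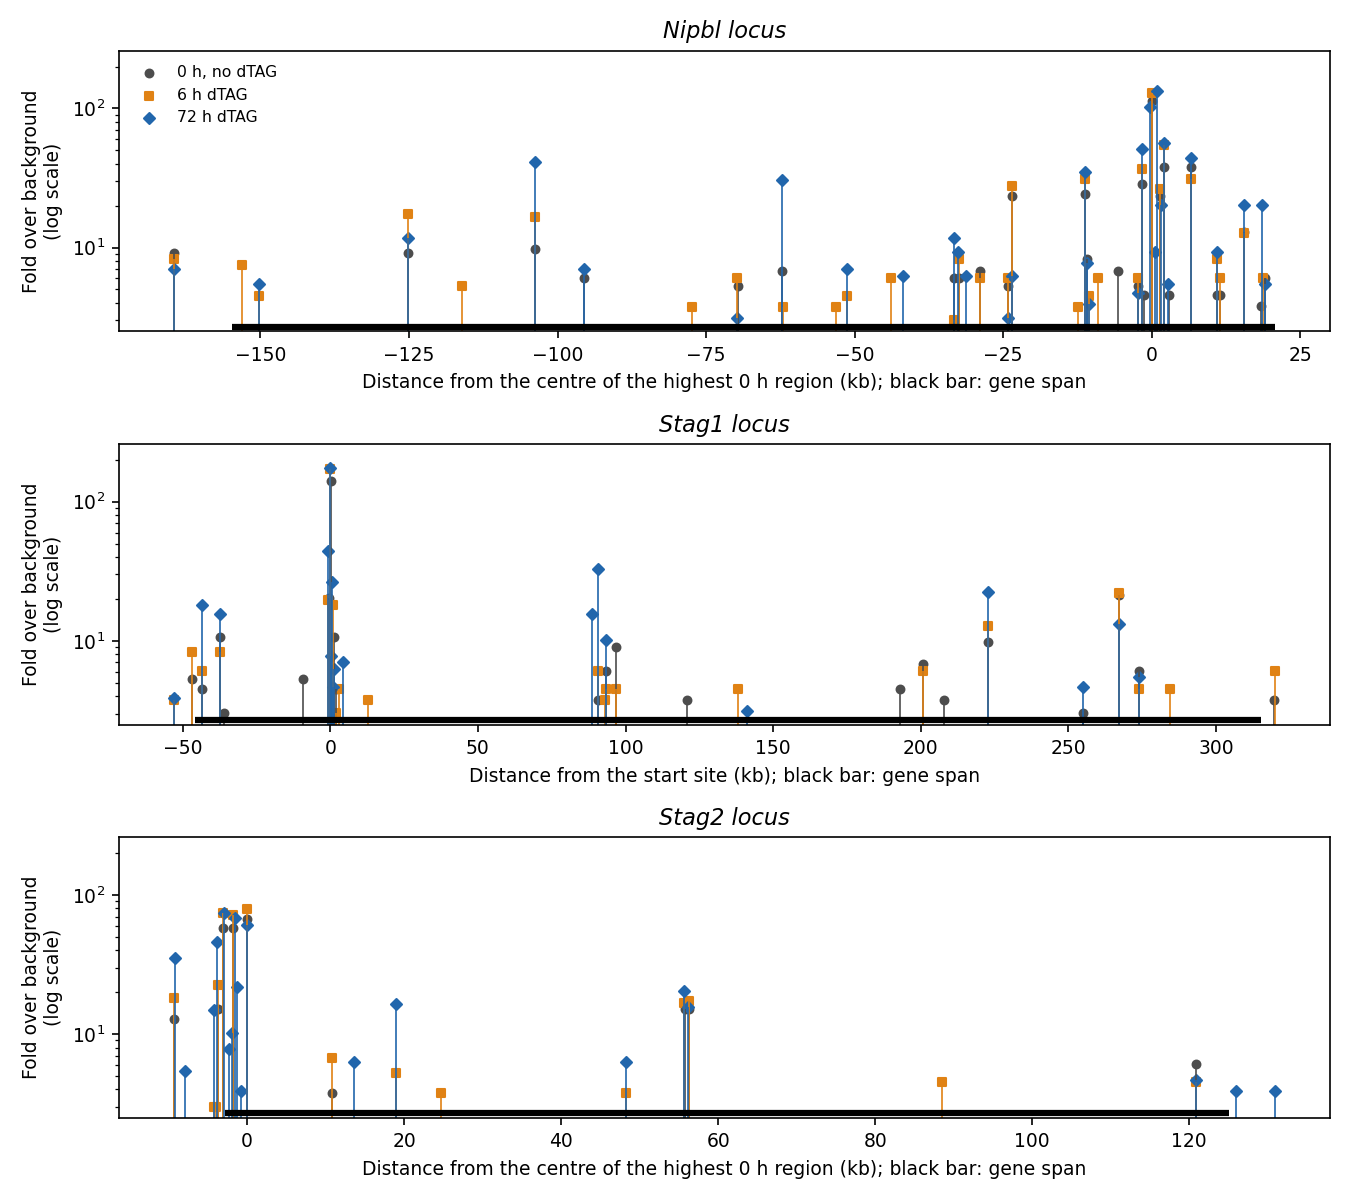
Fold over the peak caller's background (log axis) of each listed region in the Nipbl, Stag1 and Stag2 loci at 0 h, 6 h and 72 h, against distance in kb from the start site of Stag1 or from the centre of the highest 0 h region of Nipbl and Stag2, with the gene span as a black bar. The tallest markers stand near 0 kb at all times, and away from it the Stag1 stretch at 90.8 kb had folds of 3.78, 6.03 and 32.8 at the 3 times.

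Wapl (chr14:34672379-34747983), which opens the ring and takes cohesin off chromatin, had the fewest regions, 3 at 0 h, 4 after 6 h and 5 after 72 h, or 3.14 per 100 kb at 0 h. Its start region had folds of 76.3 at 0 h, 98 after 6 h and 123 after 72 h. Among the 9141 coding genes with a start region in every list, its rank was 52.6 at 0 h, 59 after 6 h and 68.3 after 72 h. The span of the non-coding gene 5830448L01Rik (34672971 to 34674668) covers this region, and signal there cannot be assigned to either gene. The 1049 bp region of 0 h was listed at 72 h as pieces at -515 to -300 with a fold of 36.7, -237 to 316 with 123 and 379 to 596 with 10.1. All 3 regions of 0 h had an overlap at 6 h and at 72 h, and all 5 regions at 72 h had one at 0 h, so the larger count at 72 h held no stretch that was absent at 0 h. Over coding loci 77.9% of 0 h regions were overlapped at 6 h and 63.3% at 72 h, and 77.4% of 72 h regions at 0 h. The 1 region at 6 h without overlap at the other times, at 34717860 to 34717915, had a fold of 5.27.

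Pds5a and Pds5b encode the subunits that bind the ring together with WAPL and also protect it. Pds5a (chr5:65605719-65698236, minus strand) held 11 regions at 0 h, 10 after 6 h and 11 after 72 h, with a start region of fold 62.7, 83.6 and 71.8. Of the 1163 bp listed there at 0 h, 92.1% lay in 2 pieces at 72 h. In its body the stretch at 65667761 to 65667912 had folds of 9.07, 12.1 and 21.9 and ranks of 33.0, 42.1 and 62.6. The highest regions without overlap were weak: at 65668079 to 65668171 a fold of 3.78 at 0 h, with none at 6 h or 72 h, at 65685866 to 65685922 a fold of 4.52 at 6 h, with none at 0 h or 72 h, and at 65680012 to 65680224 a fold of 7.81 at 72 h, with none at 0 h or 6 h.

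Pds5b (chr5:150673713-150810669, plus strand) held 9 regions at 0 h, 9 after 6 h and 8 after 72 h. Its start region had folds of 138 at 0 h, 148 after 6 h and 157 after 72 h, and ranks among start regions of 89.6, 83.5 and 81.1, so the order of the ranks was the reverse of that of the folds. The span of the predicted gene Gm40353 (150671178 to 150703016) covers the same region, and its signal cannot be assigned to either gene. At 72 h the pieces lay at -349 to 125 with a fold of 157 and 391 to 775 with 25.8. The gap of 265 bp between them was the widest in the 8 broad regions. The highest region of the locus at 0 h lay in the flank, at 150665016 to 150666004, across the end of the N4bp2l2 span at 150665748. It had folds of 154 at 0 h, 148 after 6 h and 185 after 72 h, and its signal cannot be assigned to a gene. A flanking region at 150668873 to 150668947 (fold 6.05 at 0 h), listed at 150668824 to 150668986 with 8.29 at 6 h, had no overlap at 72 h. The highest 72 h region without overlap at 0 h or 6 h, at 150664162 to 150664299, had a fold of 7.03.

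The 8 regions of at least 1000 bp at 0 h in the cohesin loci, at Nipbl, Smc1a, Smc3, Stag1, Stag2, Wapl, Pds5a and Pds5b, were all met by at least 2 separate regions at 72 h (100%, exact 95% interval 63.1 to 100). Over coding loci the share was 67.9% of 2201 broad regions. At 6 h 2 of the 8 were in pieces, Smc1a with 3 and Stag1 with 2 (25%, 3.19 to 65.1), against 31.7% over coding loci. The pieces at 72 h covered between 65.5% (Smc1a) and 92.1% (Pds5a) of the 0 h region, and the gaps were between 62 bp (Wapl) and 265 bp (Pds5b) wide. With pieces less than 150 bp apart joined, 1 of the 8 (Pds5b) was still in pieces at 72 h, against 24.9% over coding loci. The threshold had the Pds5b start region with 1039 bp just inside it and the 989 bp region at N4bp2l2 just outside, which was in 2 pieces at 6 h and 2 at 72 h. The length of a start region is that of the highest listed region over the start. Where a region was in pieces, it is thus the length of 1 piece and not of all the listed bases. Median start region length at the 7 mapped genes was 1066 bp at 0 h, 1042 bp after 6 h and 587 bp after 72 h, against 624, 614 and 477 bp over the 9141 coding genes. At 72 h 6 of the 7 were shorter than at 0 h, against 73.3% of those genes and 88% of those with a broad region at 0 h. The whole list also held fewer broad regions at 72 h (1065, or 0.734%) than at 0 h (2285, or 1.25%), and the part of the shorter 72 h list in the member counts was not tested.

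Most high regions were shared between times and most differences were among low ones. Of the 124 regions at 6 h, 91 overlapped a 0 h region by at least 1 bp (73.4%, exact 95% interval 64.7 to 80.9), against 79.2% over coding loci, and of the 112 at 0 h, 88 overlapped a 6 h region (78.6%, 69.8 to 85.8), against 77.9%. Of the 122 regions at 72 h, 93 overlapped a 0 h region (76.2%, 67.7 to 83.5), against 77.4%, and of the 112 at 0 h, 74 overlapped a 72 h region (66.1%, 56.5 to 74.7), against 63.3%. These shares were near those of coding loci. Among the 40 regions with a fold of at least 10 at 0 h, 40 were overlapped after 6 h and 39 after 72 h (97.5%, 86.8 to 99.9), against 95.1% over coding loci at 72 h. Of the 72 lower ones, 48 were overlapped at 6 h (66.7%) and 35 at 72 h (48.6%), against 64.1% and 43.3%. Joined over the lists, the 10 loci held 159 stretches, of which 69 were listed at all 3 times (43.4%, against 43.7% over coding loci). At a single time, 17 were listed at 0 h alone (10.7%, against 14.1%), 21 at 6 h alone (13.2%, against 11.4%) and 17 at 72 h alone (10.7%, against 10.6%). At a pair of times, 19 were listed at 0 h and 6 h (11.9%, against 13.7%), 6 at 0 h and 72 h (3.77%, against 2.65%) and 10 at 6 h and 72 h (6.29%, against 3.91%).

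Among the 69 stretches listed at all times, 0 ranked higher at 6 h than at 0 h by at least 25 points and 1 ranked lower, at Mau2, against 2.25% and 1.92% over coding loci. At 72 h 12 ranked higher by that much and 4 lower, against 12.2% and 10.2%. The differences in rank ranged between -27.2 and 23.3 at 6 h and between -49.3 and 70.5 at 72 h, with medians of 0.86 and -0.53, against 0.06 and -0.46 over coding loci. The main stretch of each gene, at its start or highest 0 h region, had ranks between 89.0 (Smc1a) and 98.8 (Stag1) at 0 h, between 91.9 (Stag2) and 98.9 (Stag1) at 6 h and between 85.6 (Stag2) and 98.7 (Smc3) at 72 h. For Nipbl, Rad21 and Stag2 this stretch was chosen by its fold at 0 h, so a high rank there follows in part from the choice. Among start regions alone, the 7 mapped genes fell into a high set, Stag1 (90.6, 92 and 86.7 at 0 h, 6 h and 72 h), Pds5b and Smc3 (81.1, 79.7 and 90), and a middle set of Wapl, Mau2 (50, 47.9 and 49), Pds5a (41, 49.5 and 41.6) and Smc1a (36, 48.9 and 42).

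**Figure D4:**
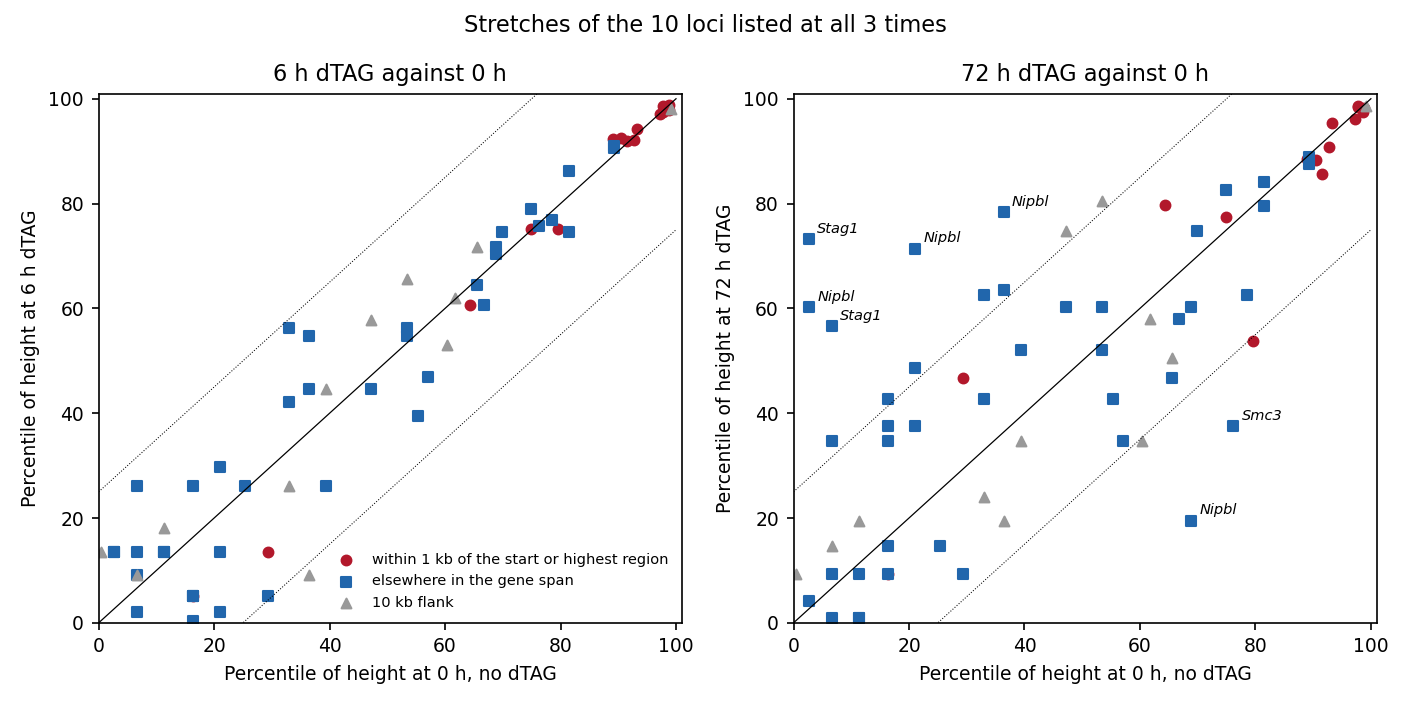
Rank by fold (percentile of height) of the 69 cohesin stretches listed at all 3 times, at 6 h (left) and 72 h (right) against 0 h, among the 98083 stretches that all 3 lists share (0 lowest, 100 highest), with dotted lines 25 points from the diagonal and colours for the place in the locus. Points on the diagonal have the same rank at both times, and the stretch farthest above it is that of Stag1, with ranks of 73.2 at 72 h and 2.65 at 0 h.

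A further 15 genes listed for the cohesin pathway, among them the boundary factor Ctcf, the acetyltransferases Esco1 and Esco2, the deacetylase Hdac8, sororin (Cdca5), shugoshin (Sgo1), separase (Espl1) and securin (Pttg1), held 125 regions at 0 h, 128 after 6 h and 118 after 72 h. Their 6 h number was above that of 0 h at 4 genes, below it at 5 and equal to it at 6. Over coding loci 34.6% held more at 6 h and 41.8% fewer. The 72 h number was above that of 0 h at 3 of the 15, below it at 7 and equal to it at 5, beside 24.1% of coding loci with more and 61.1% with fewer. Relative to all coding loci their sums were 1.05 times as large at 6 h (0.813 to 1.35) and 1.11 times at 72 h (0.852 to 1.43). All 10 with a mapped start site had a start region at all 3 times, against 52.3% of coding genes with such a site. Ctcf held 11 regions at 0 h, 14 after 6 h and 16 after 72 h, and its start region had folds of 85.4, 94.2 and 76.5. Zfp143, also among the 15, held 10, 10 and 6 regions with start folds of 146, 185 and 236.

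The 4 cohesin genes that are known for meiosis, Stag3, Smc1b, Rec8 and Rad21l, held 23 regions at 0 h, 18 after 6 h and 14 after 72 h. Smc1b, Rec8 and Rad21l, the germline counterparts of Smc1a and Rad21, had no start region in any list. Stag3, the germline counterpart of Stag1 and Stag2, had a start region of fold 39.3 at 0 h and 37.7 at 6 h and none at 72 h, and held 11 regions at 0 h, 6 after 6 h and 7 after 72 h. Rad21l held 3 regions at 0 h, 2 after 6 h and 0 after 72 h, where the lowest listed fold was 3.12. At 72 h 3 of the 4 held fewer regions than at 0 h and 1 (Smc1b) held more, beside the 61.1% and 24.1% of coding loci given above. Relative to all coding loci their sum was 0.713 times as large at 72 h (0.339 to 1.45), an interval that includes 1.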

How the data were processed

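ATAC-seq libraries of 3 times (1 each) were grouped by the treatment label. The authors deposited 1 region list per library, with narrowPeak columns of position, fold (ratio of summit to background), −log10 p-value, −log10 q-value, a display score and a summit offset. The deposited score and offset were not used. The submitters' processing notes name BWA 0.7.17, MACS2 2.2.7 and bedtools 2.30.0 and the build mm10. The sources used here do not give options, duplicate treatment or read shifting, and each changes region length and number.

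Gene spans and promoters came from RefSeq on GRCm38.p6. Nipbl, Rad21 and Stag2 had no promoter entry and were centred on their highest 0 h region. Spans come without exons or strand, so exonic and intronic positions are not given. Regions overlapped when they shared at least 1 bp. Every member is described, with the start region, the highest region and, for most pairs of times, the highest region without overlap at the other time. Of the 2 promoter entries of Mau2, that with the higher fold was used. Other pathway genes are named where the count differed by at least 4 or a start region was listed at some times alone. Intervals are exact (Clopper-Pearson for shares, binomial for ratios) and cover counting error only. Members and lists were chosen with earlier results of these data known. Alternatives were other flanks, a fold minimum, equal list sizes, joined regions, an overlap of 50%, ranking by −log10 q and leaving out each gene. Python 3.11.15, pandas 2.3.3 and scipy 1.17.1 were used, and the functions were checked on simulated regions.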

Additional observations from a re-analysis of the deposited data

Results flagged for a closer look

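The 6 h and 72 h libraries differed from the 0 h library in opposite directions in the region count of 1 locus and in the rank of 25 of the 69 stretches listed at all times, of which the 3 with a difference of at least 25 points at either time are given. Both comparisons share the 0 h library, each time has 1 library, and the difference was not tested. The share of coding loci, or of their stretches, with opposite directions was not computed. These counts therefore do not show whether the cohesin loci differ from others. The region count of the Mau2 locus was above that of 0 h at 6 h and below it at 72 h, so that the difference at 72 h minus that at 6 h was -5 regions. These opposite directions were not seen with lists of equal size (-2 at 6 h and -1 at 72 h), with 50 kb flanks (0 and -3) or with a fold of at least 10 (0 and 1). In the Nipbl body, the stretches at chr15:8382345-8382546 and chr15:8411306-8411445 ranked lower at 6 h and higher at 72 h than at 0 h, by 69.4 and 42.3 points between the 72 h and 6 h differences. The Nipbl stretch at chr15:8420979-8421190 ranked higher at 6 h and lower at 72 h, with a value of -52.3 points.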

How the results depend on the processing

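The sums relative to all coding loci kept their direction under every setting run, between 1.05 and 1.13 at 6 h and between 1.09 and 1.36 at 72 h. Leaving out each gene gave values between 1.08 and 1.17 at 6 h and, for 72 h, between 1.17 and 1.34. The number of loci with more regions at 72 h than at 0 h was 9 for regions with a fold of at least 10, 8 with lists cut to an equal 145044 regions and 3 with regions under 150 bp apart joined. The share of coding loci with more was not computed for equal lists or joining. The joining, chosen after seeing the data, left 1 broad region in pieces at 72 h. With a fold of at least 10, 100% of 0 h regions were overlapped at 6 h and 97.5% at 72 h. Of 100 differences per locus under an alternative, 61 kept their direction, 10 came to 0 and 14 reversed, and 13 of 15 moved off a difference of 0. The 14 reversed differences at 6 h minus 0 h were Mau2 with equal lists (-2), Smc1a with no flank (-1) and with joining (-1), Smc3 with 50 kb flanks (5), and Pds5a with a fold of at least 10 (1) and equal lists (3). The rest of the 14, at 72 h minus 0 h, were Mau2 with a fold of at least 10 (1), Smc3 with no flank (1), Stag1 with a fold of at least 10 (5) and equal lists (6), Wapl with 50 kb flanks (-2) and with joining (-1), and Pds5b with a fold of at least 10 (2) and equal lists (1). Joining removes pieces and a fold minimum removes low regions by construction, and for the other settings the cause was not tested. Ranks by −log10 q gave the same values as ranks by fold. In the listed regions of the loci −log10 q followed fold within a list, as at 0 h with 2.57 at a fold of 3.78 and 5.06 at 5.29. This ranking is therefore no separate check. No paired analysis was possible because each time has 1 library. Depth is unknown, so an unlisted stretch is not shown to be closed.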
